A study of Mus musculus with 8 samples.

Results

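This account describes 47 genes of mitosis and the G2/M transition, out of 55401 genes counted, in mouse B cells with and without Jmjd1c. The members were chosen by name, with earlier results of these data known. They are mitotic cyclins and kinases, chromosomal passenger and spindle checkpoint genes, kinetochore genes, kinesins, condensin subunits and other genes of mitotic chromosomes. All 47 were found once in each of the 8 libraries, and all 47 passed the filter on low counts in each comparison. RNA sequencing was done on total RNA of C57BL/6 spleen in 4 groups of 2 libraries. The 2 germinal center groups were sorted by FACS, 1 from wild-type (WT) mice and 1 from mice labelled Jmjd1c B KO. The 2 activated groups, of the same 2 genotypes, were splenic B cells pulled out with a biotinylated pan-B reagent on streptavidin beads and stimulated in vitro. Jmjd1c encodes a Jumonji-domain protein of a histone demethylase family. The promoter that drives the deletion, the exons removed, the stimulus and its duration, the age of the mice and whether libraries came from separate mice or pools are not stated by the labels. The p-values therefore measure only the spread between these libraries, which may be technical.

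As background, a dividing cell enters mitosis when cyclin B with CDK1 is switched on by CDC25 phosphatases. The chromosomes are then compacted by condensin, captured by the spindle at their kinetochores and held back by the spindle checkpoint until the anaphase-promoting complex, with its activator CDC20, destroys cyclin B and lets the sister chromatids part. Many of the genes for these proteins are transcribed late in the cell cycle from promoters with CCAAT boxes and an element called CHR, to which MuvB complexes with B-MYB and FOXM1 are recruited. Germinal centers are sites in lymphoid follicles where B cells divide rapidly and mutate their antibody genes, and mitotic transcripts are abundant there.

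The libraries held 8777425 to 11414559 counts on genes. Levels are given as CPM, counts relative to library size, after TMM scaling over all 8 libraries. Jmjd1c itself stood at 163 and 158 CPM in KO and 194 and 178 CPM in WT germinal center B cells, and at 136 and 153 CPM in KO and 274 and 283 CPM in WT activated B cells. Its log2 fold change in KO was -0.20 (SE 0.04) in germinal center and -0.94 (SE 0.06) in activated B cells. Counts over the whole gene include any exon that remains, so they do not check the deletion, and in germinal center B cells the transcript was only slightly lower. The germinal center results therefore rest on the genotype as labelled. S1pr2, a sphingosine phosphate receptor that marks germinal center B cells, was at 294 to 413 CPM in the germinal center libraries and at 4.34 to 7.04 CPM in the activated ones, and the B cell receptor gene Cd79a was at 559 CPM or more in each library. The activated libraries also held Ighd (3508 to 3579 CPM), a gene of resting recirculating B cells, and Cd69, an early activation gene, at 23.3 to 30.0 CPM. Irf4, another activation gene, was at 212 to 225 CPM there and at 49.1 and 47.1 CPM in WT germinal center libraries. Of 14 B cell activation genes, edgeR called 7 lower and 4 higher in WT germinal center than in WT activated B cells. Of all genes tested, 41.8% were called lower and 40.3% higher. No unstimulated group was there to compare the activated libraries with.

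In wild-type mice each of the 47 members was higher in sorted germinal center cells than in the activated ones. Their summed level was 13041 ± 85.5 CPM (SD, n = 2) against 1248 ± 18.4 CPM, a 10.4-fold difference. The edgeR test called all 47 higher, where 82.2% of the 14426 genes tested were called, 40.3% being higher. The median log2 fold change of the members was 4.26, beside -0.03 over all genes tested, and 37 members differed by more than 10-fold. The upper quartile of log2 fold changes was 4.90 over members and 0.77 over all genes tested. In these bulk samples, fewer cells of a kind and less RNA per cell cannot be told apart, and the cell type also goes with the sort and the stimulation in culture.

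Mki67, the proliferation marker that coats mitotic chromosomes, had the highest counts of the members. It stood at 2760 and 2648 CPM in the WT germinal center libraries and at 70.3 and 68.5 CPM in the WT activated ones. The log2 fold change was 5.27 (SE 0.06), and the groups lay far apart. Kif2c, a kinesin that takes microtubules apart at their ends, had the widest fold difference, from 2.37 and 1.59 to 111 and 99.2 CPM (log2 fold change 5.71, SE 0.13). Cdc20 went from 7.12 and 6.74 to 283 and 281 CPM (5.33, SE 0.08) and Cdk1, the kinase that drives entry into mitosis, from 3.20 and 2.87 to 122 and 124 CPM (5.32, SE 0.11). Kif2c, Cdc20 and Cdk1 were each below 10 CPM in the activated libraries.

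A few members were well expressed in both cell types. Cenpa, the histone H3 variant of centromeres, stood at 155 and 149 CPM in WT germinal center B cells and at 94.6 and 101 CPM in WT activated B cells, a log2 fold change of 0.62 (SE 0.06). Cdc25b, a phosphatase that activates cyclin-CDK complexes, followed with 396 and 403 against 211 and 220 CPM (0.88, SE 0.05). Smc4, an ATPase subunit of condensin, had 616 and 600 against 223 and 212 CPM (1.47, SE 0.05). For each of these 3 genes the difference was below 4-fold, while the other 44 members were above it.

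Per kilobase of exon, the order among members was different from the order by counts. In WT germinal center B cells the chromatin protein gene Hmgb2 led with 410 CPM per kb, followed by Mki67 with 269, the CDK-binding subunit gene Cks2 with 167 and Cdc20 with 151 CPM per kb. In WT activated B cells Cdc25b stood at 57.8, Hmgb2 at 52.3 and Smc4 at 41.8 CPM per kb, while Mki67 was at 6.90 and Cdc20 at 3.71 CPM per kb. Hmgb2 was thus near the top in both cell types. The groups are too small for the order of Cdc25b and Hmgb2 to be tested.

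**Figure D1:**
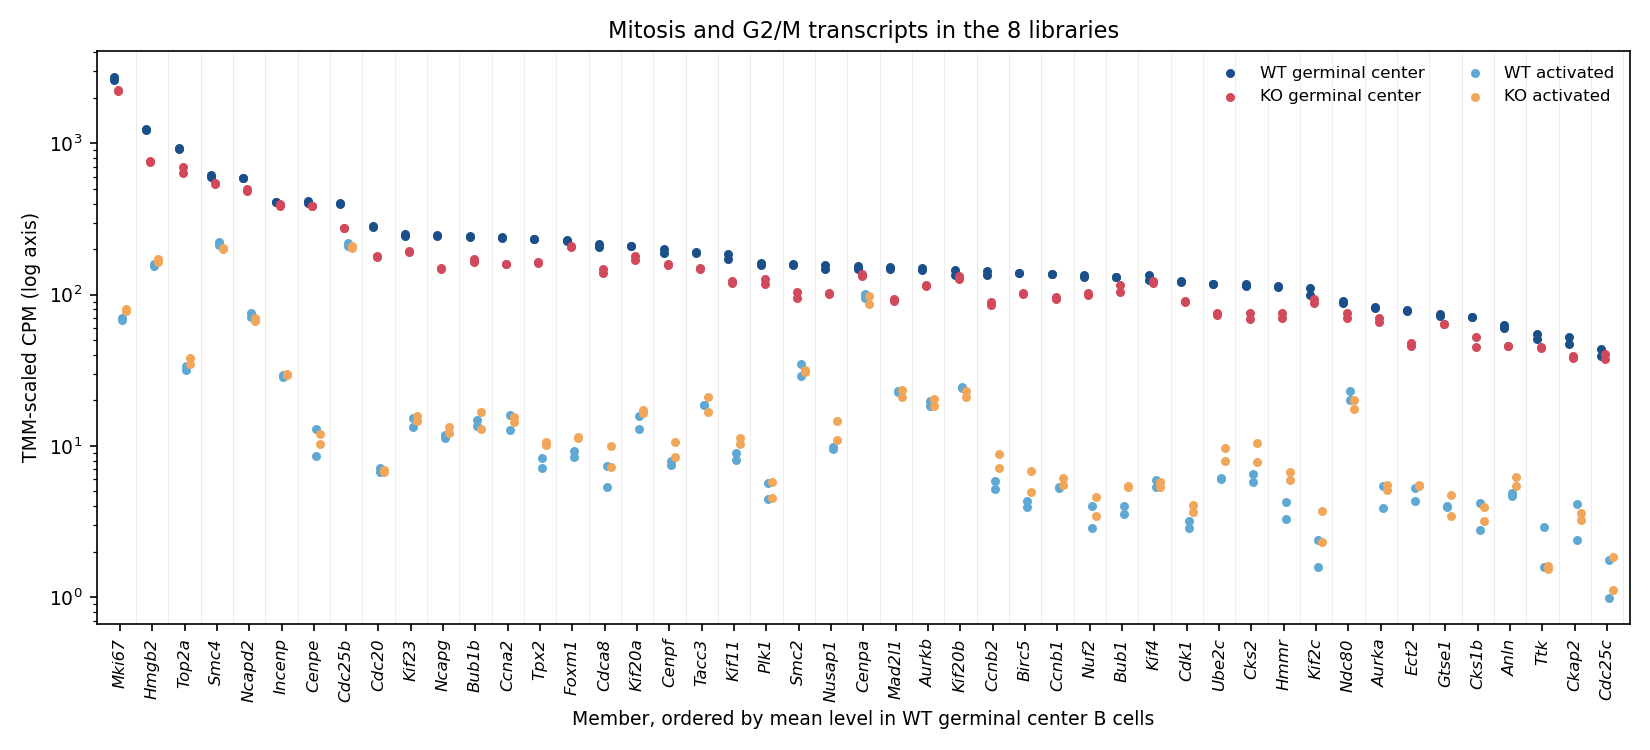
Level of each of the 47 members in the 8 libraries, as TMM-scaled CPM on a log axis, with members ordered by their mean in WT germinal center B cells and 1 point per library. Mki67 lies highest in germinal center B cells, at 2227 to 2760 CPM, and every germinal center point lies above the activated points of the same member.

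In KO cells the same comparison again put all 47 members higher in germinal center B cells, where 78.7% of the 14307 genes tested were called, 39.2% being higher. The summed level was 10015 ± 103 CPM (SD, n = 2) against 1273 ± 5.12 CPM, a 7.87-fold difference, and the median log2 fold change of members was 3.56, beside -0.02 over all genes. Cenpe, a kinesin of the kinetochore, had the widest difference, from 10.3 and 11.9 to 386 and 389 CPM (log2 fold change 5.13, SE 0.07). Cdc25b had the narrowest, from 203 and 210 to 278 and 278 CPM (0.43, SE 0.05). More than 10-fold differences were seen for 31 members. The upper quartile of log2 fold changes was 4.20 over members and 0.71 over all genes tested.

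**Figure D2:**
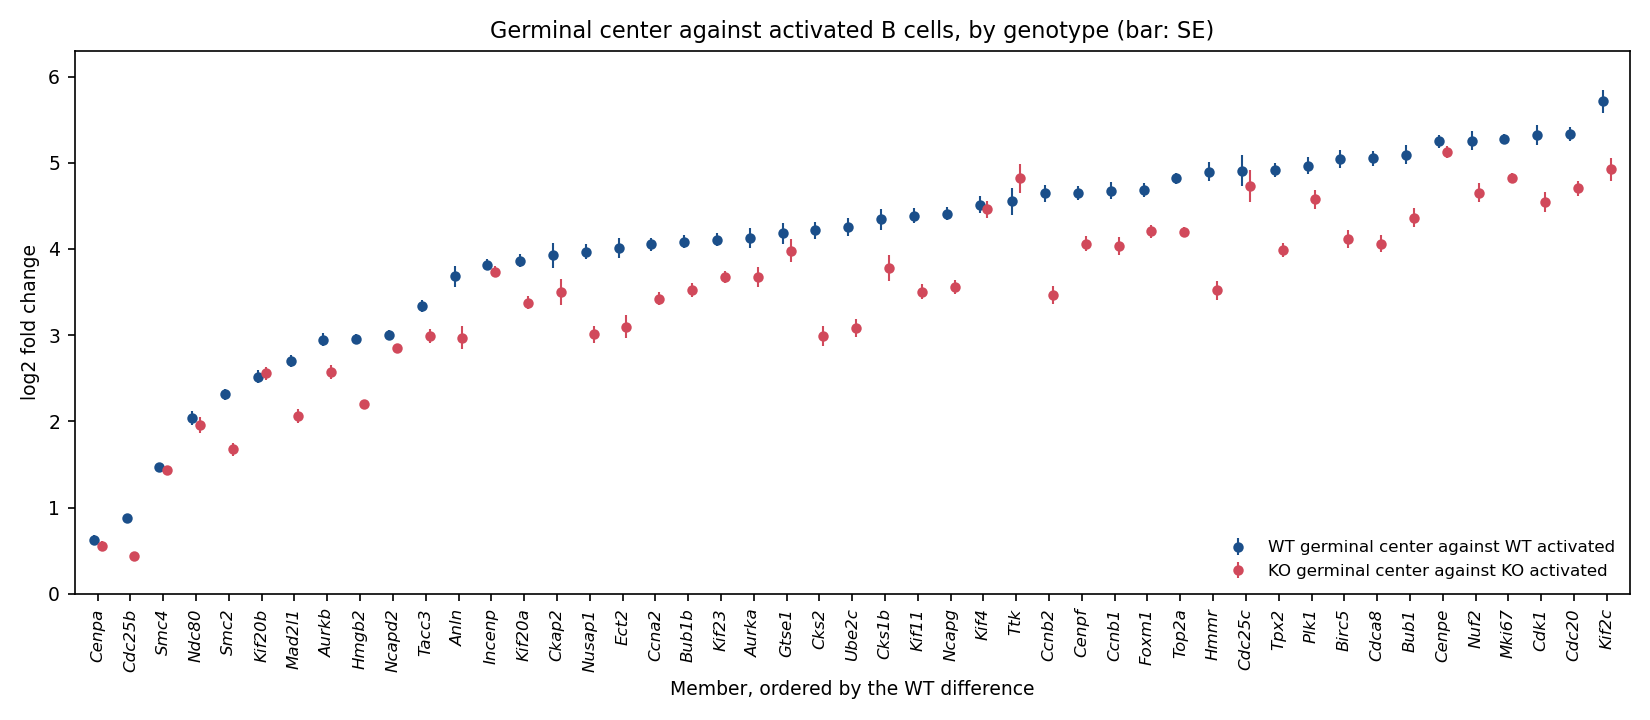
Log2 fold change between germinal center and activated B cells for each member, within WT (blue) and within KO (red), with bars for the SE and members ordered by the WT value. WT values run from 0.62 for Cenpa to 5.71 for Kif2c, and most KO values lie below the WT value of the same member.

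Since the members differed together between the cell types, their promoters were read for the elements named above. RefSeq windows on GRCm38.p6, from 250 bases before to 50 bases after the start, were at hand for 39 of the 47 members. TTTGAA, the core of the CHR element, was present on either strand in 28 of 39 windows (71.8%), against 20.2% of 27025 genes with a window. CCAAT was present in 30 of 39 (76.9%), against 41.1% of genes. Both stood in 1 window for 24 members (61.5%), against 7.97% of genes. Restricted to the 50 bases on each side of the start, TTTGAA was found in 24 members (61.5%) and in 5.72% of genes. The CHR variant TTCGAA was found in 4 members and the E2F motifs TTTGGCGC and TTTCCCGC in 1 each (2.56%, against 0.585% and 1.24% of genes). Among the 9333 tested genes with a window, the shares were 14.9% for TTTGAA, 43.3% for CCAAT, 1.11% for TTTGGCGC and 2.46% for TTTCCCGC. For TTTCCCGC the members were thus close to the tested genes. Between the cell types in WT, the median log2 fold change was 4.36 with TTTGAA and 4.22 without, and 4.40 with CCAAT and 3.68 without. In KO the medians were 3.54 with TTTGAA and 3.98 without, and 3.675 with CCAAT and 2.987 without. These splits of the members were not tested. A match of letters does not show that a factor binds there.

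The 7 stretches printed here show what these promoters look like, each of 120 bases ending just before the more upstream of the RefSeq and GENCODE starts. Capitals mark TTTGAA and CCAAT or their reverse complements TTCAAA and ATTGG. Cdc20 (chr4:118437353-118437472, minus strand), Cdk1 (chr10:69352939-69353058, minus strand), Hmgb2 (chr8:57511723-57511842, plus strand) and Top2a (chr11:99024190-99024309, minus strand) are shown because they hold both elements. Ncapg (chr5:45669799-45669918, plus strand) holds TTTGAA alone in the stretch, and Cks2 (chr13:51645112-51645231, plus strand) CCAAT alone. Mad2l1 (chr6:66535101-66535220, plus strand) holds neither and is 1 of 5 members whose whole window lacks both CHR forms and CCAAT.
Cdc20: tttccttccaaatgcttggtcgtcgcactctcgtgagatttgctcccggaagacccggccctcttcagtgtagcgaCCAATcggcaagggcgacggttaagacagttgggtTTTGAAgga
Cdk1: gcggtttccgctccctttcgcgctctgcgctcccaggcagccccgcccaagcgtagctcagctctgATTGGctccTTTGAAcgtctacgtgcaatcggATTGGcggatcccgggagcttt
Hmgb2: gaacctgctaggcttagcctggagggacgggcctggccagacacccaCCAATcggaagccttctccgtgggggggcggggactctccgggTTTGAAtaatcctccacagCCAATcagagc
Top2a: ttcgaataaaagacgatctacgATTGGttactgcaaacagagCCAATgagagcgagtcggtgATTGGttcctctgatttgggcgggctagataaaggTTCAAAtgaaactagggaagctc
Ncapg: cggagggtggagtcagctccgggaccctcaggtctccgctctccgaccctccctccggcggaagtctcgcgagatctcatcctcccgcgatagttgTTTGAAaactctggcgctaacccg
Cks2: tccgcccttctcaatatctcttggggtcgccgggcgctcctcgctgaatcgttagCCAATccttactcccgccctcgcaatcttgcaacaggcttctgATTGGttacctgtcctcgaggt
Mad2l1: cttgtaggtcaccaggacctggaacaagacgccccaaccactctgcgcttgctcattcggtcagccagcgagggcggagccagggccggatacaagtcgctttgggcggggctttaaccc

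Knockout germinal center B cells held fewer transcripts of nearly all members than wild-type ones. The edgeR test called 43 of 47 lower, 0 higher and 4 not passing, where 25.1% of the 13350 genes tested were called lower and 25.1% higher (50.2% in either direction). DESeq2 also called 0 members higher, with 40 lower. At an unadjusted p under 0.05 neither tool gave a member that was higher, and edgeR gave 44 lower, where 27.3% of all genes were lower and 27.3% higher. The median log2 fold change of members was -0.39, beside -0.004 over all genes, and the range ran from -0.74 (Ect2) to -0.07 (Incenp). In 46 members both KO libraries lay below both WT libraries, as they did in 37.0% of all genes tested, with 35.7% the other way round. The lower quartile of log2 fold changes was -0.57 over members and -0.25 over all genes tested. The reductions were modest: 10 members were lower by more than 1.5-fold, and the summed level in KO cells was 76.8% of WT. Without Mki67, which made up 20.7% of the WT sum, it was 75.2%.

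**Figure D3:**
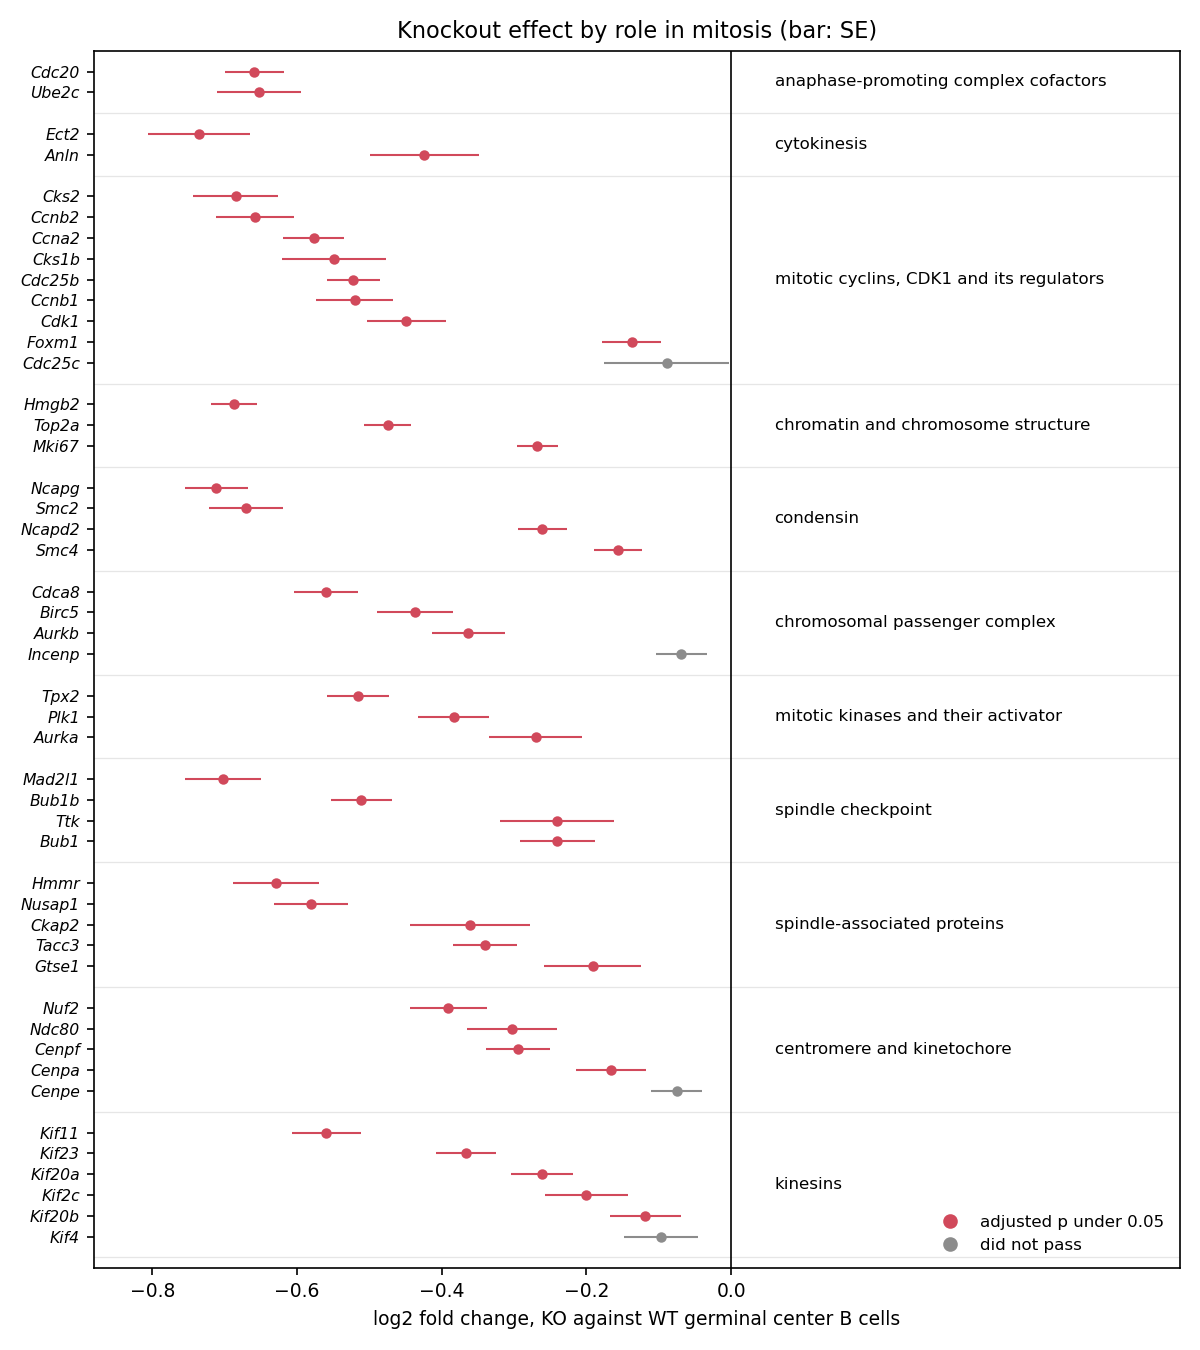
Log2 fold change of KO against WT germinal center B cells for the 47 members, grouped by role, with bars for the SE and color for the outcome of the edgeR test. All points lie below 0, and the 4 grey points (Incenp, Cenpe, Kif4 and Cdc25c) did not pass.

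Among the 9 genes of mitotic cyclins, CDK1 and its regulators, 8 fell, with a group median of -0.52. Cks2, a small CDK-binding subunit, went from 114 and 118 CPM in WT to 68.6 and 75.2 CPM in KO libraries (log2 fold change -0.68, SE 0.06). The cyclin gene Ccnb2 went from 135 and 143 to 86.0 and 90.1 CPM (-0.66, SE 0.05) and Ccnb1, the other B-type cyclin here, from 137 and 138 to 93.8 and 97.0 CPM (-0.52, SE 0.05). In each of these genes the KO and WT libraries were separate. Cdk1 fell from 122 and 124 to 88.9 and 90.8 CPM (-0.45, SE 0.06, adjusted p = 4.39e-15), and Cdc25b from 396 and 403 to 278 and 278 CPM (-0.52, SE 0.04). Foxm1, the transcription factor of G2/M genes, fell by less, from 227 and 232 to 210 and 206 CPM (-0.14, SE 0.04, adjusted p = 0.00233), and without KO replicate 2 its adjusted p was 0.0526. Cdc25c, another CDC25 phosphatase, was at 40.4 and 37.9 CPM in KO and 39.5 and 43.8 CPM in WT libraries, which overlapped (-0.09, SE 0.09, adjusted p = 0.411).

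Both cofactors of the anaphase-promoting complex among the members fell. Cdc20 went from 283 and 281 to 180 and 177 CPM (log2 fold change -0.66, SE 0.04, adjusted p = 8.53e-56). Ube2c, the ubiquitin-conjugating enzyme that works with the anaphase-promoting complex, fell from 117 and 117 to 75.4 and 73.2 CPM (-0.65, SE 0.06). Both genes of cytokinesis fell as well. Ect2, the exchange factor that activates RhoA at the cleavage furrow, had the lowest value of all members, from 79.1 and 77.7 to 45.8 and 48.1 CPM (-0.74, SE 0.07, adjusted p = 7.02e-24), and fell by 39.9%. The gene lies on chromosome 3 from 27097222 to 27153878 (minus strand, GRCm38). Anln, an actin-binding protein of the contractile ring, fell by 0.42 on the log2 scale.

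All 4 spindle checkpoint genes fell, with a median of -0.38. Mad2l1, the protein that holds CDC20 inactive, went from 148 and 153 CPM to 93.9 and 90.7 CPM (-0.70, SE 0.05). Bub1b fell by 0.51, and the kinase genes Bub1 and Ttk by 0.24 each, with Ttk at 44.2 and 45.0 CPM in KO and 50.9 and 54.6 CPM in WT libraries. The 3 genes of PLK1, Aurora A and the Aurora A activator TPX2 also fell, Tpx2 by 0.52, Plk1 by 0.38 and Aurka by 0.27. In the chromosomal passenger complex, which corrects faulty kinetochore attachments, 3 of 4 genes fell. Aurkb, its kinase, went from 150 and 146 to 116 and 114 CPM (-0.36, SE 0.05), Cdca8 fell by 0.56 and Birc5 by 0.44. The scaffold gene Incenp of the same complex stood at 395 and 388 CPM in KO and 410 and 413 CPM in WT libraries, without overlap, and did not pass (-0.07, SE 0.04, adjusted p = 0.0941).

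The condensin subunits fell by unequal amounts. Ncapg, a subunit of condensin I, went from 245 and 247 to 151 and 149 CPM (log2 fold change -0.71, SE 0.04, adjusted p = 2.16e-59). Its partner in the same complex, Ncapd2, went from 590 and 593 to 497 and 488 CPM (-0.26, SE 0.03). The pair of ATPase subunits also differed, with Smc2 lower by 0.67 on the log2 scale (SE 0.05) and Smc4 by 0.16 (SE 0.03), from 616 and 600 to 538 and 550 CPM. Among the 3 genes of chromatin and chromosome structure, Hmgb2 fell from 1219 and 1241 to 756 and 769 CPM (-0.69, SE 0.03, adjusted p = 8.43e-105), Top2a, the topoisomerase that untangles chromatids, from 940 and 925 to 643 and 696 CPM (-0.47, SE 0.03), and Mki67 from 2760 and 2648 to 2227 and 2253 CPM (-0.27, SE 0.03). The 2 KO libraries lay below the 2 WT libraries in each of the 3.

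Kinetochore genes and kinesins showed the smaller reductions, with medians of -0.29 over 5 genes and -0.23 over 6. Nuf2 and Ndc80, which bind microtubules together at the kinetochore, fell by 0.39 and 0.30. Cenpf fell by 0.29 and Cenpa by 0.17. Cenpe was at 386 and 389 CPM in KO and 416 and 403 CPM in WT libraries, again without overlap, and did not pass (-0.08, SE 0.04, adjusted p = 0.0656); without WT replicate 2 it passed, at an adjusted p of 0.0154. Kif11, the motor that pushes spindle poles apart, had the lowest value among kinesins (-0.56, SE 0.05), followed by Kif23 (-0.37), Kif20a (-0.26) and Kif2c (-0.20, from 111 and 99.2 to 94.0 and 87.8 CPM). Kif20b, a kinesin of late cytokinesis, passed narrowly, at 127 and 132 against 135 and 147 CPM (-0.12, SE 0.05, adjusted p = 0.0346). Its adjusted p was 0.300 without KO replicate 1 and 0.448 without WT replicate 2. Kif4, a chromosome-bound kinesin, did not pass, at 123 and 120 against 125 and 136 CPM (-0.10, SE 0.05, adjusted p = 0.104), and passed without WT replicate 1 (adjusted p = 0.0265). Scaled by library size alone, 46 members were lower, with Cenpe, Incenp and Kif4 among them.

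The 5 spindle-associated genes all fell, with a median of -0.36. Hmmr, a hyaluronan receptor that also binds spindle microtubules, went from 114 and 112 to 70.0 and 75.2 CPM (-0.63, SE 0.06), and Nusap1 fell by 0.58. Ckap2, Tacc3 and Gtse1 fell by 0.36, 0.34 and 0.19. Among the 39 members with a promoter window, the median log2 fold change was alike with TTTGAA and without it, at -0.44 over 28 and -0.44 over 11 members. With CCAAT the median was -0.49 over 30 members, and without CCAAT -0.39 over 9, a split that was not tested. Of the members, 6 have more than 10% of their exon length on the opposite strand of another gene's exons, namely Kif20a (29.3%), Ube2c (22.8%), Kif4 (15.1%), Ncapg (13.4%), Cdc25c (12.7%) and Ccna2 (12.5%). The strand setting of the counting is not known here, so their values are less certain.

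Other genes of the cell cycle were lower in KO germinal center B cells too. Of 80 other mitotic genes, 61 fell, 3 rose and 16 did not pass, with a median of -0.33; Lmnb1 (-0.77), of the nuclear lamina, Kpna2 (-0.59), an importin, and Ncapg2 (-0.69), of condensin II, were examples. Of 15 subunits and activators of the anaphase-promoting complex, 9 fell and 1 rose (median -0.19), with Anapc11, the RING subunit, at -0.67. Of 13 genes of MuvB, B-MYB and the DREAM repressor, 8 fell and 0 rose (1 was higher at an unadjusted p under 0.05 in edgeR, and DESeq2 gave 7 lower and 0 higher; median -0.21), among them Rbbp4 (-0.59) and Mybl2 (-0.21), which encodes B-MYB. S phase genes were lower to a like degree, with 41 of 58 lower, 4 higher and a median of -0.35, Pola1 (-1.08), a replicative polymerase subunit, and Pcna (-0.60), the polymerase clamp, being examples. The lists were picked with earlier results of these data known, so their direction is no separate evidence.

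Other groups of genes moved beside the members. Germinal center identity genes fell, with 12 of 14 lower and 2 higher, and their summed level was 3156 and 3168 CPM in KO and 5117 and 5138 CPM in WT libraries. Genes of recirculating and memory B cells rose, with 17 of 20 higher and 2 lower, and sums of 9141 and 9284 CPM in KO against 3141 and 3155 CPM in WT. Quiescence genes, a list that overlaps the former, gave 12 higher and 4 lower of 19 tested. The mitochondrial share of counts was 9.20% and 9.52% in KO and 5.51% and 5.27% in WT libraries. With the mitochondrial genes left out of all counts, the number of members lower was again 43. All 7 dark zone genes tested were lower.

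Markers of other cells and states differed in KO germinal center B cells as well. The sums below give most weight to the genes with the highest levels, so single markers can change by far more. Of markers of monocytes and macrophages, 13 of 15 tested were higher, with sums of 959 and 976 CPM in KO against 756 and 799 CPM in WT libraries. The widest change there was that of Ly6c2 (log2 fold change 7.03, SE 0.54). Erythroid markers gave 7 of 8 tested higher and 1 lower, with sums of 168 and 182 against 134 and 144 CPM. Hbb-bs stood at 22.3 and 27.7 CPM in KO and 1.78 and 2.28 CPM in WT libraries (3.61, SE 0.19), and the lower gene was Tfrc (-0.38, SE 0.05). Dendritic cell markers gave 3 of 4 tested higher, with sums of 109 and 101 against 68.2 and 71.6 CPM. T cell markers gave 4 of 7 tested higher, with sums of 128 and 122 against 120 and 121 CPM. Cd4 stood at 3.41 and 3.09 CPM in KO and 0.105 and 0.274 CPM in WT libraries (3.97, SE 0.56), while Lck did not pass (-0.13, SE 0.06). Plasma cell markers gave 6 of 9 tested higher and 1 lower, with sums of 1058 and 1067 against 931 and 948 CPM, and B cell activation genes 10 of 13 higher, with sums of 1398 and 1421 against 1039 and 1046 CPM. The neutrophil marker sum was 3.17 and 2.14 CPM in KO and 0.630 and 1.09 CPM in WT libraries, and none of these markers passed the filter. Of stromal and follicular dendritic cell markers 1 of 3 tested was higher, with sums of 886 and 866 against 431 and 428 CPM. That gene was Fcer2a (log2 fold change 1.22, SE 0.03), which is also in the list of recirculating and memory B cell genes, while Mfge8 and Cr1l did not pass. This stromal sum therefore does not mark stromal cells apart from B cells. Of platelet markers 1 of 2 was lower, with sums of 81.0 and 81.3 against 103 and 104 CPM. The part of these genes in the members' result was not tested.

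**Figure D4:**
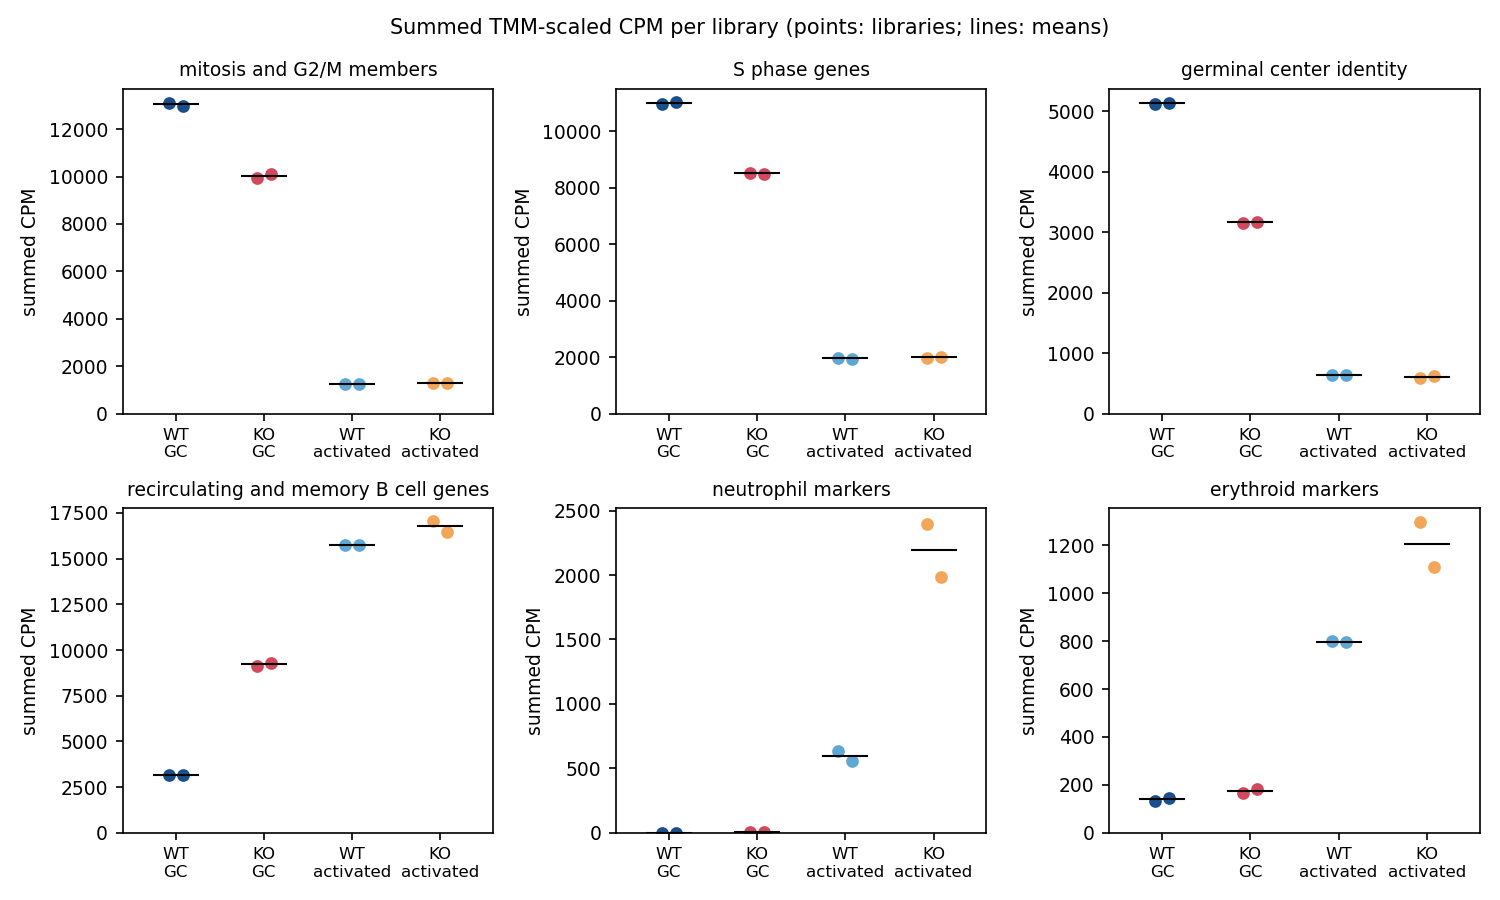
Summed TMM-scaled CPM per library for the 47 members and for 5 other gene lists, with 1 point per library, a line at the group mean and each vertical axis starting at 0. In germinal center B cells the members go from 13101 and 12980 CPM in WT to 9943 and 10088 CPM in KO, and in activated B cells all 4 libraries lie between 1235 and 1276 CPM.

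In activated B cells the summed level of the members was nearly equal in the genotypes, at 1276 and 1269 CPM in KO and 1261 and 1235 CPM in WT libraries. The edgeR test called 1 member higher, Hmmr, and 0 lower, where 4.85% of the 14110 genes tested were called higher and 1.42% lower (6.27% in all). The median log2 fold change of members was 0.11, beside 0.0006 over all genes, with 36 values above 0 and 11 below. At an unadjusted p under 0.05 there were 12 members, each of them higher, where 11.1% of all genes were higher and 7.23% lower. Both KO libraries lay above both WT libraries in 21 members and below in 5, and 21 overlapped; of all genes tested, 24.2% lay above and 23.6% below.

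Hmmr stood at 6.76 and 5.96 CPM in KO and 4.23 and 3.27 CPM in WT activated B cells (log2 fold change 0.76, SE 0.23, adjusted p = 0.0444). The call rests on few reads, 66 and 59 in KO and 41 and 33 in WT libraries. Its adjusted p was 0.252 without KO replicate 1 and 0.310 without WT replicate 2, and in each of these fits 0 members were called. Without KO replicate 2, 5 members were called higher: Cks2, Ube2c, Cdca8, Hmmr and Nusap1. DESeq2 called 0 members (311 genes in all) and gave 0 members at an unadjusted p under 0.05.

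Several members with low levels had positive values that did not pass. Kif2c was at 3.69 and 2.32 CPM in KO and 2.37 and 1.59 CPM in WT libraries (0.60, SE 0.34). Cks2 was at 10.4 and 7.77 against 5.78 and 6.54 CPM (0.56, SE 0.19, adjusted p = 0.0865), Ube2c at 9.62 and 7.98 against 6.09 and 6.05 CPM (0.54, SE 0.19) and Ccnb2 at 8.80 and 7.17 against 5.16 and 5.85 CPM (0.54, SE 0.20). In the last 3 the KO libraries lay above the WT libraries, and in Kif2c they overlapped. Mki67 had 78.0 and 80.8 against 70.3 and 68.5 CPM (0.20, SE 0.07, adjusted p = 0.0926), without overlap. Foxm1 had 11.3 and 11.4 against 8.47 and 9.22 CPM (0.36, SE 0.16, adjusted p = 0.208).

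Of the other members given here, 4 had values above 0 that did not pass, with both KO libraries above both WT libraries. Hmgb2 had 171 and 163 CPM in KO and 159 and 155 CPM in WT libraries (0.09, SE 0.06), and Top2a 35.0 and 38.4 against 34.0 and 31.6 CPM (0.17, SE 0.09). Cdk1 was at 4.10 and 3.63 against 3.20 and 2.87 CPM (0.35, SE 0.27), and Ccnb1 at 5.53 and 6.16 against 5.27 and 5.35 CPM (0.14, SE 0.21). In 2 members the genotypes were close to level. Cdc20, at 6.76 and 6.97 against 7.12 and 6.74 CPM (-0.01, SE 0.19), and Aurkb, at 20.5 and 18.3 against 18.3 and 19.8 CPM (0.03, SE 0.12), overlapped, and the sign of each turned when KO replicate 1 or WT replicate 1 was left out. For members of a few CPM an SE of 0.2 or more leaves moderate differences undetectable at this depth.

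The lowest values in activated B cells belonged to Ttk, Ndc80, Kif20b, Smc4 and Ncapd2, and none of the 5 passed. Ttk had 1.54 and 1.62 CPM in KO and 2.89 and 1.59 CPM in WT libraries (-0.49, SE 0.38), so that 1 WT library set its value. Ndc80 had 17.6 and 20.1 against 20.2 and 23.1 CPM (-0.20, SE 0.12), and Kif20b 21.2 and 23.0 against 24.3 and 24.5 CPM (-0.14, SE 0.10). Smc4 had 201 and 203 against 223 and 212 CPM (-0.10, SE 0.05), and Ncapd2 70.0 and 67.3 against 75.9 and 70.7 CPM (-0.09, SE 0.07). Apart from Ttk, the KO libraries of these genes lay below the WT libraries.

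The other cell cycle lists gave no call in activated B cells: 0 of 78 other mitotic genes, 0 of 15 genes of the anaphase-promoting complex and 0 of 58 S phase genes passed in either direction in edgeR's test. At an unadjusted p under 0.05, edgeR gave 1 of the other mitotic genes lower and 4 higher, 0 genes of the anaphase-promoting complex, and 2 S phase genes lower and 1 higher, and DESeq2 gave 0 in each list, adjusted or not. Their medians were 0.02, 0.01 and 0.05. Markers of other cells did differ there. All 14 neutrophil markers were higher in KO libraries (median 1.78), S100a9 by 1.95 and Ltf by 1.78, with sums of 2398 and 1984 CPM against 631 and 556 CPM. Erythroid markers gave 8 of 12 higher, with sums of 1296 and 1111 against 802 and 794 CPM, and monocyte and macrophage markers 8 of 14 higher, with sums of 2578 and 2390 against 1835 and 1717 CPM. The KO library with the higher neutrophil and erythroid sums, replicate 1, is 1 of the 2 libraries without which Hmmr did not pass. The part of these cells in the members' values was not tested.

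The KO effects in the 2 cell types were compared in 1 edgeR fit over all 8 libraries. The germinal center effect was lower than the activated one for 32 of 47 members and higher for 0, where 31.2% of the 14992 genes tested were called, 13.8% lower and 17.5% higher. DESeq2 called 28 members lower and 0 higher, and at an unadjusted p under 0.05 both tools again gave 0 higher. The median difference of log2 fold changes was -0.60 over members and 0.03 over all genes. The same contrast measures how far the difference between germinal center and activated B cells shrank in the knockout.

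The widest differences belonged to genes with a negative value in germinal center B cells and a positive one in activated B cells. Hmmr had a difference of -1.39 (SE 0.22, adjusted p = 9.11e-08), Cks2 of -1.25 (SE 0.18), and Ccnb2 and Ube2c of -1.19 each (SE 0.19 and 0.18). For Ect2 (-0.93, SE 0.22), Ncapg (-0.87, SE 0.14) and Cdk1 (-0.80, SE 0.25) the germinal center effect was again negative and the activated value positive. Hmgb2 had the lowest p-value of the members, with a difference of -0.78 (SE 0.07, adjusted p = 4.56e-17), nearly all of it from germinal center B cells. Cdc20 (-0.65, SE 0.18), Top2a (-0.64, SE 0.10), Mki67 (-0.47, SE 0.08) and Cdc25b (-0.46, SE 0.07) passed likewise.

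Members without a detected difference included several with a small germinal center effect. Smc4 had a difference of -0.05 (SE 0.07), Cenpa of -0.09 (SE 0.08), Incenp of -0.10 (SE 0.10) and Kif20b of 0.02 (SE 0.12). Ttk had the highest value, 0.25, with a wide SE of 0.35. By role, the difference passed for both genes of cytokinesis, both cofactors of the anaphase-promoting complex and all 3 of chromatin structure, and for 2 of 5 kinetochore and 2 of 4 condensin genes. Of the 32 calls, 19 held whichever library was left out, and 13 were lost when 1 of the activated libraries was left out. Leaving out activated KO replicate 1 ended 8 calls (24 members remaining), WT replicate 2 ended 7, and KO replicate 2 and WT replicate 1 ended 2 each. Without a germinal center library, 1 or 2 calls were lost, those of Nuf2 and Kif2c. Among the genes given by library, the lost calls included Aurkb without KO replicate 1 (adjusted p = 0.116) or WT replicate 1 (0.0675), Cdk1 without KO replicate 1 (0.0826) or WT replicate 2 (0.0779), Ccnb1 without KO replicate 2 (0.0742) and Foxm1 without WT replicate 1 (0.0544). The 2 KO effects share no library, and across the 47 members Pearson's r between them was -0.31 and Spearman's rho -0.29, given as a description, since genes are not independent and the activated values of low members are noisy.

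**Figure D5:**
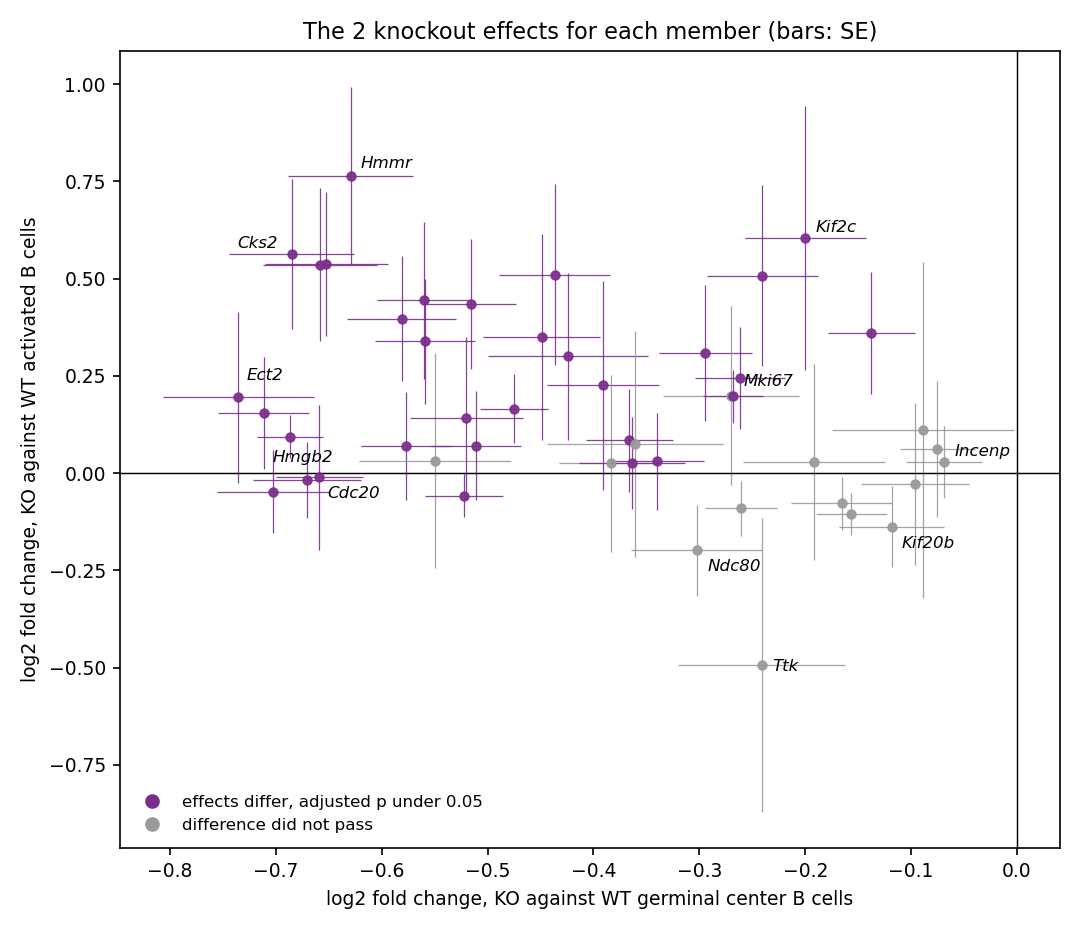
Log2 fold change of KO against WT in germinal center B cells (horizontal) and in activated B cells (vertical) for each of the 47 members, with bars for the SE and color for the test of the difference. All points lie left of 0, from -0.74 to -0.07, while the vertical values spread on both sides of 0, from -0.49 for Ttk to 0.76 for Hmmr.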

How the data were processed

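The authors deposited whole-number read counts per gene, 1 file per library, with no normalization; the build mm10 and the tools Trimmomatic and DESeq2 are listed per the submitters' processing notes. Which aligner and counter were run, and with which strand setting, is not given in the sources used here. The sample titles gave groups and replicate numbers. Entries that name no gene (56.7% to 59.5% of all entries per library, mostly reads on no feature) stayed out of library sizes and tests. Gene models, exon lengths and strands came from GENCODE M21 (GRCm38), and promoter windows from RefSeq (GRCm38.p6).

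Each comparison was fitted over all genes with edgeR 4.0.16 in R 4.3.3 (TMM, filterByExpr, quasi-likelihood F test, Benjamini-Hochberg over all genes tested), with the threshold set at an adjusted p of 0.05. KO was set against WT within a cell type (4 libraries), germinal center against activated B cells within a genotype (4 libraries), and the difference of KO effects in 1 fit of 8. CPM levels use 1 scaling over 8 libraries and fold changes the fit of their comparison. On simulated counts with 200 changed genes, KO against WT in germinal center B cells (13350 genes) recovered 100% of 2-fold and 89% of 1.5-fold changes, and in activated B cells (14110 genes) 98% and 95%. False calls made up 4.06% and 6.76% of the calls. The simulated spread between libraries was the same for every gene, and changed genes were drawn only from those above a floor of expected counts. The activated shares therefore do not hold for members with few reads there, such as Cdk1 with 29 to 40 reads.

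The members and lists were chosen with earlier results of these data known. Per-library values were given for Mki67, Top2a, Cdk1, Ccnb1, Foxm1, Cdc20, Aurkb and Hmgb2, the 5 lowest and 5 highest members of each KO comparison, the 3 lowest and 3 highest of the others, and members that did not pass in germinal center B cells. Of each other list, the genes with the lowest p were named. Replicate pairs differed by more than sampling noise (chi-square per degree of freedom 1.38 to 2.28) and were kept apart. Alternatives were DESeq2 1.42.0, RLE scaling, library size alone, no mitochondrial genes, no filter, a replicate block, all libraries in 1 fit and leaving out each library.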

Additional observations from a re-analysis of the deposited data

Results flagged for a closer look

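EdgeR's test of the difference of KO effects itself, over all 8 libraries, called 31.2% of the 14992 genes tested, 13.8% being lower. It called 32 of the 47 members, with the germinal center effect lower than the activated one in each. Of these 32 members, 17 are among the 27 members chosen for values per library. Some of the 17 calls were lost when a single activated library was left out, as given above. The difference, germinal center minus activated on the log2 scale, was -1.39 for Hmmr, -1.25 for Cks2, -1.19 for Ccnb2, -1.19 for Ube2c, -0.93 for Ect2 and -0.87 for Ncapg. It was -0.81 for Kif2c, -0.80 for Cdk1, -0.78 for Hmgb2, -0.66 for Ccnb1, -0.66 for Mad2l1, -0.65 for Cdc20 and -0.64 for Top2a. Smaller values belonged to Foxm1 (-0.50), Mki67 (-0.47), Cdc25b (-0.46) and Aurkb (-0.39). Each of the 17 was lower in KO germinal center B cells, and 14 of them had a value above 0 in activated B cells (the exceptions being Mad2l1, Cdc20 and Cdc25b).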

How the results depend on the processing

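The count of members lower in KO germinal center B cells was 40 (DESeq2) to 46 (library size alone), and 40 to 43 when single libraries were left out. Under each alternative and in both genotypes, all 47 members were higher in the germinal center groups. With library size alone, the median of all genes moved to -0.16 in WT and -0.19 in KO in these comparisons, and that of the members to 4.13 and 3.38; leaving out single libraries gave 4.24 to 4.30 and 3.59 to 3.62. In activated B cells, the count of members higher was 0 with DESeq2, 0 without a filter, 3 with a replicate block, 5 with all libraries in 1 fit and 0 to 5 with single libraries left out, and genes called went from 885 to 311, 465 and 1388 with DESeq2, without a filter and with the block. Leaving out single libraries gave 601 to 951 genes and member medians of 0.11 to 0.21. For the difference of KO effects, DESeq2 called 2645 genes in place of 4685; leaving out single libraries gave 3851 to 4493 genes, 24 to 34 members lower (24 without activated KO replicate 1) and medians of -0.66 to -0.54. Same-numbered libraries did not deviate together (correlations of -0.01 to 0.01). With 2 libraries per group and a spread that is in part sampling noise, that check cannot exclude a pairing by number. With the block, 43 members were lower in KO germinal center B cells. Of 856 alternative values for named members, 814 kept direction and call, 17 lost the call, 13 gained it and 12 turned sign. The difference of KO effects for Kif20b turned to -0.0046 with DESeq2, -0.0019 with RLE and -0.0172 with library size alone. With single libraries left out, values ran from -0.0604 to 0.105 for Aurkb and -0.0521 to 0.0262 for Cdc20 in activated B cells, and in the difference from -0.0401 to 0.108 for Kif20b, -0.0866 to 0.004 for Smc4 and -0.234 (without activated WT replicate 1) to 0.649 for Ttk. The cause was not tested. The lowest member count was 10 in an activated library and 312 in a germinal center library.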
